A study of Homo sapiens with 30 samples.

Results

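The difference between the responses to 2 missense-correcting tRNAs (mc-tRNAs) was measured in HEK293 cells, a wild-type human line that was established from embryonic kidney. By its name, Ser-tRNA_Arg(CCG) carries serine on an anticodon for an arginine codon, and Arg-tRNA_Trp(CCA) carries arginine on an anticodon for the tryptophan codon. The comparison took the change in each mRNA with the Ser mc-tRNA, which is EGFP(R65)+Ser-tRNA_Arg(CCG) against EGFP(R65) alone, and subtracted the change with the Trp mc-tRNA, which is EGFP(R96W)+Arg-tRNA_Trp(CCA) against EGFP(R96W) alone. The first change is called the Ser effect below, the second the Trp effect, and their difference, Ser effect minus Trp effect, is positive where the Ser effect is the higher one. Each of the 4 groups had 3 libraries, so that 12 of the study's 30 libraries belong to the comparison; the other 18 libraries entered only the estimate of the spread. Cells of all 4 groups had been transfected transiently with a plasmid for an EGFP-mCherry reporter of mistranslation, with or without the mc-tRNA, and mCherry-positive cells had been sorted 48 h later, so that no group was an untransfected control. The labels call the 3 libraries of a group independent replicates without saying what separates them, so that p-values measure the spread between these libraries.

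Newly made secretory and membrane proteins fold in the endoplasmic reticulum (ER), and unfolded protein there is sensed by IRE1, PERK and ATF6. These sensors raise the genes of ER chaperones, of ER-associated degradation and of the secretory pathway, a programme known as the unfolded protein response. Unfolded protein in the cytosol is met by the heat shock response, in which the factor HSF1 raises HSP70, HSP40, HSP90 and small heat shock protein genes. PERK and 3 related kinases can also phosphorylate eIF2α, which favours translation of ATF4 and raises its targets, the integrated stress response. A tRNA that puts a wrong amino acid into protein can make proteins that misfold in either compartment.

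The 12 libraries held 39017548 to 49845521 counts in genes, and a count of 0 allows up to 0.0602 to 0.0769 CPM (normalised read count), for counting error only. The pairs differed in more than their mc-tRNA. The reporters differed, and the 6 libraries with EGFP(R96W) held 25 to 61 counts of ERCC spike-in RNA, against 0 in each of the 6 libraries with EGFP(R65); the study's other 18 libraries held 10 to 106. The first principal component of log2 CPM, with 58.1% of the variance, ran from -103 to -42.8 in the EGFP(R65) libraries and from 63.4 to 90.5 in the EGFP(R96W) libraries. No source used here says whether the libraries of the 2 reporters were prepared together. Reporter, mc-tRNA and anything else that separated these libraries therefore cannot be told apart in the difference of the effects. Each effect was measured within its own reporter. With the reporter alone, 2021 of 22321 genes were at least 2-fold higher in EGFP(R65) than in EGFP(R96W) libraries and 2708 at least 2-fold lower. Reporter-alone levels are therefore given for genes that are described in full and for part of the other genes and lists. Each of the 8 lineage genes known from HEK293 cells was detected. Of 21 markers of blood, endothelial, liver, skin and connective tissue cells, 10 passed the filter on low counts and summed to 49.4 to 56.3 CPM in Ser mc-tRNA libraries and 30 to 32.7 CPM in EGFP(R65) libraries. The same sum was 21.2 to 27.2 CPM in Trp mc-tRNA libraries and 20.4 to 23 CPM in EGFP(R96W) libraries. Mitochondrially encoded transcripts took 2.8% to 2.87% of counts with the Ser mc-tRNA, 3.34% to 3.52% with EGFP(R65), 2.9% to 3.25% with the Trp mc-tRNA and 4.53% to 5.07% with EGFP(R96W). The part of these differences in the results was not tested.

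The 2 mc-tRNAs changed many genes, and nearly as many genes responded differently to them. A gene is said to have risen, fallen or differed where its Benjamini-Hochberg adjusted p in edgeR's quasi-likelihood test was under 0.05 among 22321 genes. The effects differed for 10109 genes (45.3%), of which 4352 (19.5%) had the higher Ser effect and 5757 (25.8%) the lower Ser effect. The balance of this split turned with the scaling, since library totals in place of TMM factors gave 5132 higher and 4782 lower, and with size, since 2229 genes were at least 2-fold higher and 1479 at least 2-fold lower. The Ser effect passed the test for 12790 genes (57.3%), with 5938 risen (26.6%) and 6852 fallen (30.7%). The Trp effect passed it for 9481 genes (42.5%), with 4628 risen (20.7%) and 4853 fallen (21.7%). Changes of at least 2-fold were more frequent in the Ser effect, where 2316 genes rose and 1865 fell that far, than in the Trp effect, where 778 rose and 905 fell. Of the genes called for the Trp effect 48.8% had risen, and 31.4% with library totals, a scaling that put the median gene at -0.16 and not at -0.03 on the log2 scale. Both mc-tRNAs raised 2027 genes and lowered 2474; 1024 genes fell with the Ser mc-tRNA and rose with the Trp mc-tRNA, and 805 did the reverse. Across the 11601 genes with a mean of at least 5 CPM, the 2 effects, which share no library, had a Pearson correlation of 0.36 and a Spearman correlation of 0.38, as a description across genes that are not independent. Because 45.3% of all genes differed, the counts below are read against these shares. In bulk libraries a lower level in each cell and fewer cells with the transcript cannot be told apart.

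**Figure D1:**
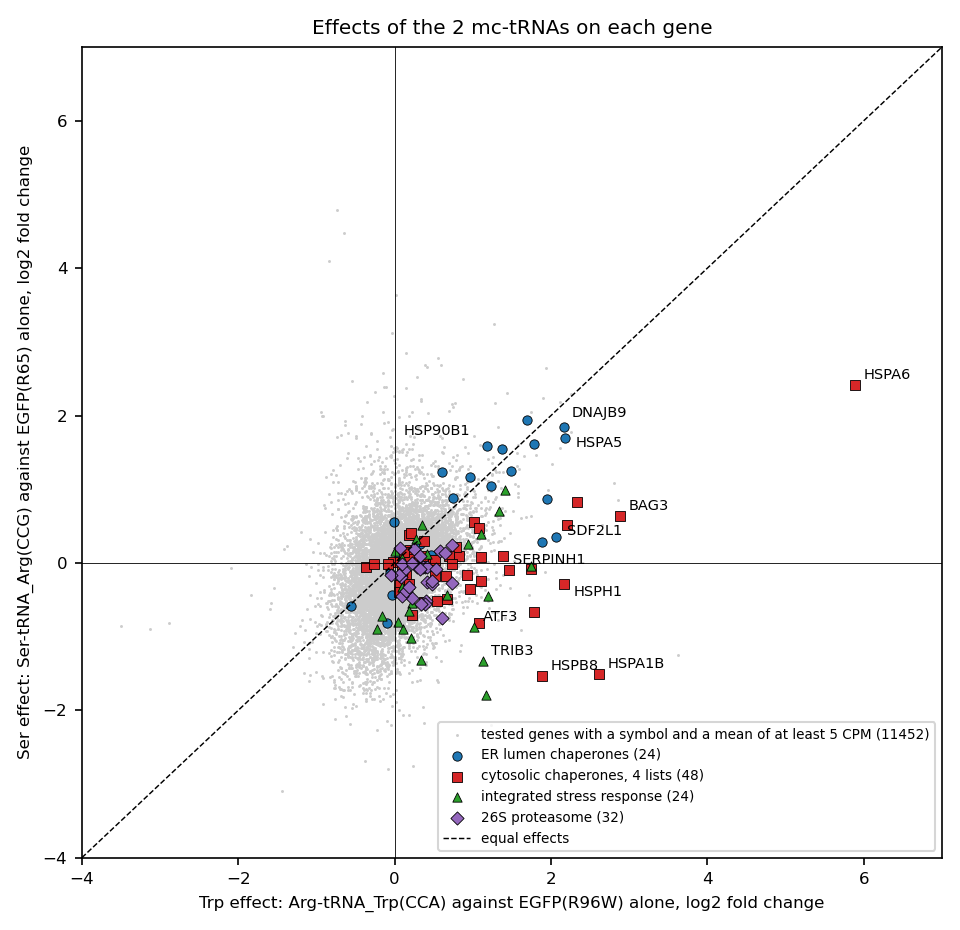
Log2 fold change with the Ser mc-tRNA (vertical axis) against log2 fold change with the Trp mc-tRNA (horizontal axis), one point per gene with a symbol and a mean of at least 5 CPM; the dashed line marks equal effects and coloured symbols mark 4 gene groups. ER lumen chaperones (blue circles) lie near the dashed line at the upper right, apart from a few such as SDF2L1, while most cytosolic chaperones (red squares) lie to the right of it, with HSPA6 at 2.41 and 5.89.

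Most ER chaperones rose with both mc-tRNAs. Of 24 genes for chaperones of the ER lumen, 16 rose and 3 fell with the Ser mc-tRNA (median 0.71 on the log2 scale), and 17 rose and 1 fell with the Trp mc-tRNA (median 0.85). The 15 that rose with both include 9 whose effects did not differ past the test. Summed over the list, the level was 8807 to 9736 CPM with the Ser mc-tRNA against 4037 to 4131 CPM with EGFP(R65), and 10174 to 12406 CPM with the Trp mc-tRNA against 4777 to 4864 CPM with EGFP(R96W). The effects differed for 11 members, with a higher Ser effect for 3 and a lower Ser effect for 8, and the median difference of -0.12 compares with -0.06 over all genes; with library totals, and with only genes of at least 10 CPM, the counts were 7 higher and 5 lower. Across the 24 genes the 2 effects had a correlation of 0.75, given as a description.

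HSPA5 (ENSG00000044574, chr9:125234853-125241330, minus strand, GRCh38) encodes BiP, the ER's HSP70 chaperone, which also holds the stress sensors inactive. It had 1987, 1949 and 1757 CPM in the 3 Ser mc-tRNA libraries, against 566, 586 and 611 CPM in the EGFP(R65) libraries. It had 3306, 3514 and 2664 CPM in the Trp mc-tRNA libraries, against 679.7, 690.3 and 726 CPM in the EGFP(R96W) libraries. Every library with an mc-tRNA was above every library without one, and the Trp mc-tRNA libraries were above the Ser mc-tRNA libraries. The Ser effect was 1.69 ± 0.07 (log2 ± SE) and the Trp effect 2.18 ± 0.07, a difference of -0.49 ± 0.10 (adjusted p 0.000116). HSP90B1 (ENSG00000166598, chr12:103930107-103953645, plus strand), which encodes GRP94, the ER's HSP90 chaperone, showed the opposite order of effects. Its levels were 2217, 2217 and 1992 CPM with the Ser mc-tRNA against 712, 727 and 695 CPM with EGFP(R65), and 2050.2, 2071 and 1875 CPM with the Trp mc-tRNA against 886, 906 and 854 CPM with EGFP(R96W). The Ser effect of 1.59 ± 0.07 exceeded the Trp effect of 1.18 ± 0.07 by 0.41 ± 0.09 (adjusted p 0.000359). Every EGFP(R65) library was below every EGFP(R96W) library, while the levels with the 2 mc-tRNAs overlapped, so that the reporter-alone levels entered this difference. HSP90B1 overlaps UQCC6 and TTC41P on the other strand, and no source used here says whether the authors counted by strand.

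The promoters of these 2 genes are shown because both hold the ER stress element, the site bound by ATF6 with NF-Y. It was searched on both strands as CCAAT, then 9 bases of any kind, then CCACG; matches are in capitals. The windows are RefSeq's, build GRCh38.p14, from 250 bases before to 50 after the gene's start, read along the gene's strand. HSPA5 lies on the minus strand of chromosome 9 (chr9:125241294-125241593) and HSP90B1 on the plus strand of chromosome 12 (chr12:103930160-103930459).
HSPA5: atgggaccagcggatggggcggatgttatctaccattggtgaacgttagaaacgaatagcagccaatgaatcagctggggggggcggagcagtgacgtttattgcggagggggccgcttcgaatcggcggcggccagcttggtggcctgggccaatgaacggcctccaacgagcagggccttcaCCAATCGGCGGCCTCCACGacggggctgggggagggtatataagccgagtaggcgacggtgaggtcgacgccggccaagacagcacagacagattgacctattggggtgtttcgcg
HSP90B1: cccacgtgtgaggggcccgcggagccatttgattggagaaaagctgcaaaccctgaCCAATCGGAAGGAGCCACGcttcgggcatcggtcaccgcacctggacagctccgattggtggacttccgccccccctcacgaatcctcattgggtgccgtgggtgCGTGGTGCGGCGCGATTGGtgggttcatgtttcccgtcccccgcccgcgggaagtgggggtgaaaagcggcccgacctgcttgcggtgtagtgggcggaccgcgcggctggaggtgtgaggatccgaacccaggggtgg
HSPA5 had 1 match that began at base -66 from the start, and HSP90B1 had 2, at -194 and -89. The element was found in 15 of 13386 promoters of tested genes (0.112%) and in 5 of the 23 ER lumen chaperone genes with a promoter in the table (21.7%), which were CALR, CANX, CRELD2, HSP90B1 and HSPA5. Their median was 1.54 in the Ser effect, 1.23 in the Trp effect and 0.14 in the difference. Over all 15 genes with the element, the medians were 0.99, 1.18 and 0.00. XBP1 and ERO1B held it as well, and none of 45 promoters of cytosolic chaperone genes did; a match describes letters and is no measurement of binding.

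XBP1, DNAJB9 and MANF of the unfolded protein response rose with both mc-tRNAs, and their effects did not differ past the test in the fit used here. XBP1, whose mRNA is spliced by IRE1 to encode a transcription factor, had 570.4, 572 and 551 CPM with the Ser mc-tRNA against 276, 279 and 294 CPM with EGFP(R65). With the Trp mc-tRNA it had 572, 617 and 526 CPM, against 264, 295 and 300.1 CPM with EGFP(R96W). The effects were 0.99 ± 0.07 and 1.00 ± 0.07, and the difference of -0.00 ± 0.10 did not pass the test (adjusted p 0.986). DNAJB9, the ER co-chaperone ERdj4, had 90.9, 89.2 and 78.0 CPM with the Ser mc-tRNA against 23.1, 25.5 and 23.8 CPM with EGFP(R65), and 124, 113 and 115 CPM with the Trp mc-tRNA against 23.5, 28.0 and 27.0 CPM with EGFP(R96W). Its difference of -0.33 ± 0.14 had an adjusted p of 0.0535, and it passed in 7 of 20 alternative settings, among them no filter on low counts and the 12 libraries alone. MANF, a secreted protein that binds BiP, had a Ser effect of 1.94 ± 0.09 and a Trp effect of 1.69 ± 0.09, with an adjusted p of 0.0876 for the difference, which passed in 4 of 20 alternative settings: with library totals, with only genes of at least 10 CPM, and without the third Ser mc-tRNA library or the first Trp mc-tRNA library. Among the 3 stress sensors, EIF2AK3, which encodes PERK, rose in both with 0.72 ± 0.07 and 1.15 ± 0.07. ATF6 rose with the Trp mc-tRNA, by 0.36 ± 0.07, and its Ser effect of -0.12 ± 0.07 did not pass the test, a difference of -0.48 ± 0.10 (adjusted p 0.000241). CREB3L4, an ER-bound factor related to ATF6, rose with the Ser mc-tRNA by 1.07 ± 0.10 and fell with the Trp mc-tRNA, at -0.38 ± 0.10. Of the 12 sensors and factors listed, 4 had the higher Ser effect and 4 the lower Ser effect.

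A few ER chaperones responded strongly to the Trp mc-tRNA and little to the Ser mc-tRNA. SDF2L1, a partner of ERdj co-chaperones, had 22.8, 21.5 and 23.2 CPM with the Ser mc-tRNA against 16.6, 18.0 and 18.6 CPM with EGFP(R65). It had 63.6, 63.2 and 72.0 CPM with the Trp mc-tRNA, against 16.4, 14.1 and 16.9 CPM with EGFP(R96W). The Trp mc-tRNA libraries stood apart from the 9 others, the Ser effect of 0.35 ± 0.09 and the Trp effect of 2.07 ± 0.09 differing by -1.72 ± 0.12 (adjusted p 1.17e-13). SERPINH1, the collagen chaperone HSP47, had 89.7, 85.5 and 86.3 CPM with the Ser mc-tRNA and 69.8, 77.0 and 67.8 CPM with EGFP(R65), and 338, 318 and 254 CPM with the Trp mc-tRNA and 70.8, 76.6 and 98.1 CPM with EGFP(R96W). Its difference was -1.61 ± 0.13 (adjusted p 2.42e-11), and its promoter held a heat shock element and no ER stress element. DNAJB11, the co-chaperone ERdj3, rose in both, with a difference of -1.08 ± 0.09 (adjusted p 7.02e-12). At the other end, HSPA13, a membrane-bound HSP70 relative, rose by 1.23 with the Ser mc-tRNA and 0.60 with the Trp mc-tRNA. CNPY3, a chaperone of Toll-like receptors, fell with the Ser mc-tRNA (-0.82 ± 0.07), while its Trp effect was -0.10 ± 0.07.

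**Figure D2:**
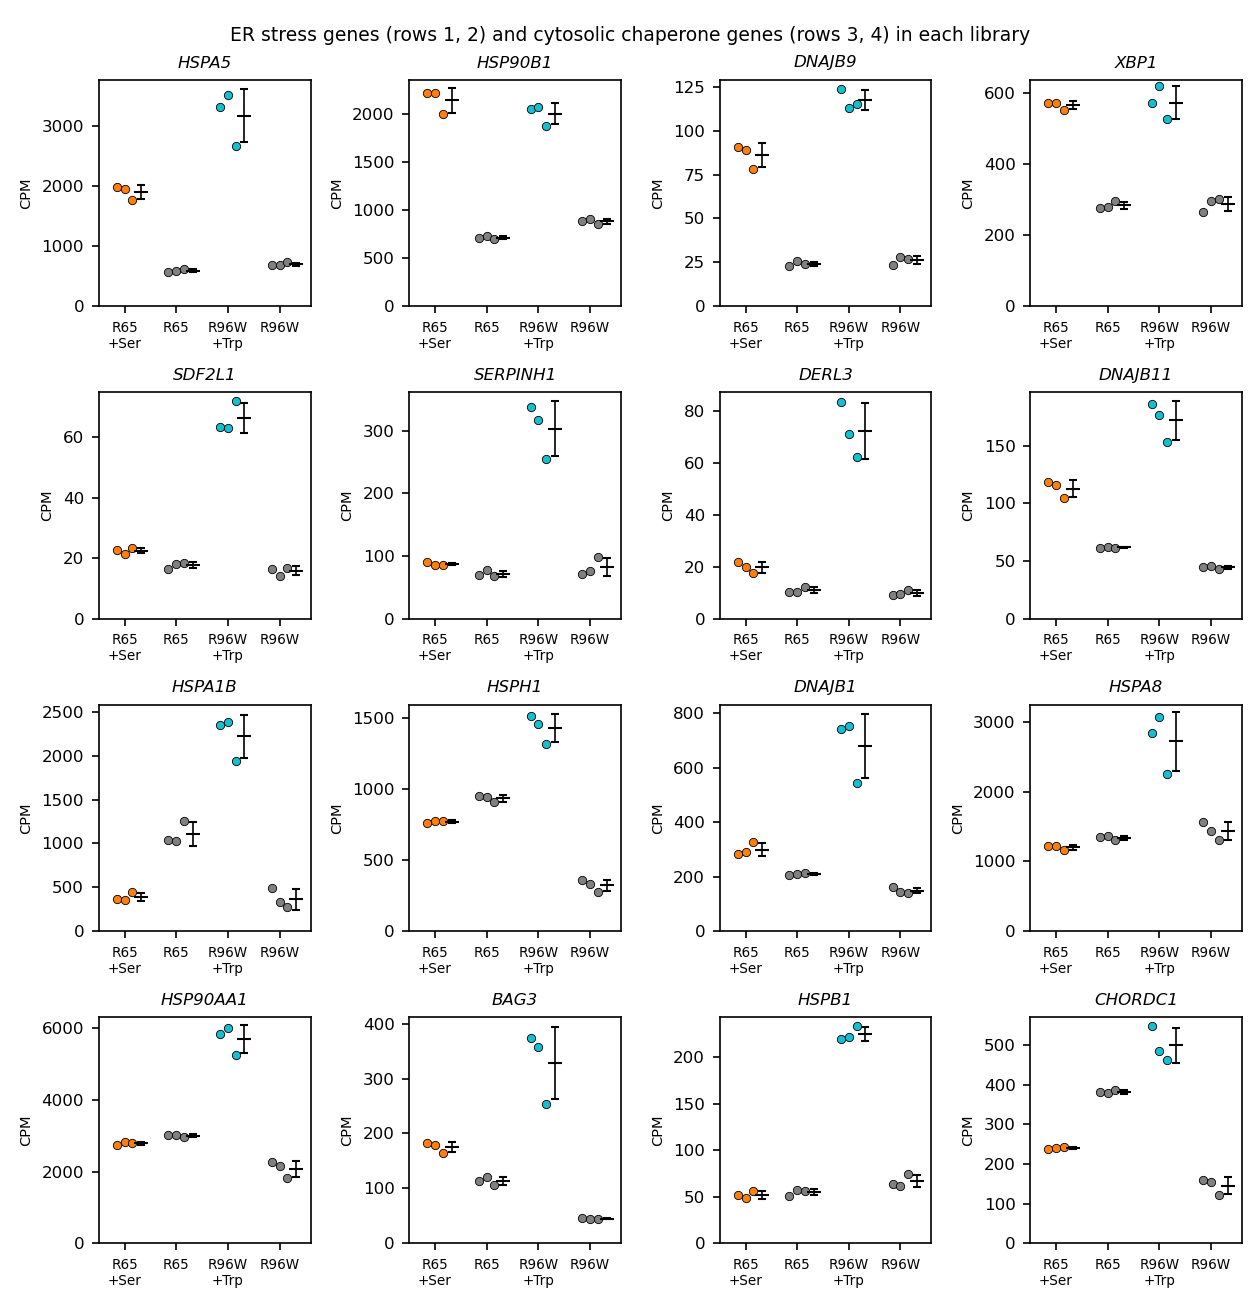
CPM of 16 genes in each library, with the mean and SD of 3 libraries beside the points; in each panel the order is EGFP(R65)+Ser mc-tRNA, EGFP(R65), EGFP(R96W)+Trp mc-tRNA and EGFP(R96W). In the upper panels the ER stress genes HSPA5, HSP90B1, DNAJB9 and XBP1 are above their reporter in both pairs, and in the lower panels HSPA1B, HSPH1 and HSPA8 are above their reporter in the Trp pair and at or below it in the Ser pair.

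Among genes of disulfide exchange, of degradation from the ER and of entry into and exit from it, more members rose than fell with both mc-tRNAs, and more rose with the Trp mc-tRNA. Of 18 protein disulfide isomerases and ER oxidases, 8 rose and 5 fell with the Ser mc-tRNA, and 10 rose and 2 fell with the Trp mc-tRNA. PDIA4, an isomerase of the ER, rose by 2.64 with the Ser mc-tRNA and by 1.94 with the Trp mc-tRNA, 1 of 2 members with the higher Ser effect (0.70 ± 0.09). The other was the membrane-bound thioredoxin TMX4 (0.87 ± 0.09). ERP44, which retrieves proteins to the ER, had 86.5, 84.9 and 90.2 CPM with the Ser mc-tRNA and 86.7, 82.7 and 84.7 CPM with EGFP(R65). With the Trp mc-tRNA it had 175, 172 and 149.4 CPM, against 83.5, 80.4 and 80.4 CPM with EGFP(R96W), a difference of effects of -0.98 ± 0.08 (adjusted p 6.27e-12). TXNDC5, another isomerase, rose with the Trp mc-tRNA by 0.93, and its Ser effect was -0.13.

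Of 28 genes of ER-associated degradation, 16 rose with the Ser mc-tRNA and 23 with the Trp mc-tRNA, with the lower Ser effect for 17 and the higher for 3. DERL3, a derlin of the retrotranslocation channel, had 21.7, 19.8 and 17.6 CPM with the Ser mc-tRNA against 10.2, 10.2 and 12.2 CPM with EGFP(R65). It had 83.5, 71.3 and 62.1 CPM with the Trp mc-tRNA, against 9.17, 9.50 and 11.1 CPM with EGFP(R96W). It rose in both pairs without overlap between groups, by 0.85 ± 0.10 and 2.86 ± 0.10, and the effects differed by -2.01 ± 0.14 (adjusted p 1.45e-13). HERPUD1, a scaffold of the same complexes, had 285, 289 and 241 CPM with the Ser mc-tRNA against 90.6, 90.0 and 95.7 CPM with EGFP(R65), and 436, 435 and 352 CPM with the Trp mc-tRNA against 85.4, 94.5 and 103 CPM with EGFP(R96W). Its effects of 1.56 ± 0.08 and 2.11 ± 0.08 differed by -0.55 ± 0.11 (adjusted p 7.68e-05). SEL1L, the adaptor of the HRD1 ligase, differed by -0.83 ± 0.11, while SYVN1, which encodes that ligase, rose by 1.11 and 1.19 and did not differ past the test (adjusted p 0.495). NPLOC4, a cofactor of the VCP segregase, fell with the Ser mc-tRNA (-0.21 ± 0.06) and rose with the Trp mc-tRNA (0.48 ± 0.06). ERLIN2, which marks substrates at the ER membrane, fell with the Trp mc-tRNA (-0.61 ± 0.06) and had a Ser effect of 0.13 ± 0.06.

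Of 33 genes of translocation and glycosylation, 18 rose and 7 fell with the Ser mc-tRNA, 28 rose and 2 fell with the Trp mc-tRNA, and 22 had the lower Ser effect. Of 29 genes of COPII, COPI and ER-Golgi transport, 23 rose and 1 fell with the Ser mc-tRNA, 28 rose with the Trp mc-tRNA and none fell, and 19 had the lower Ser effect and 3 the higher (12 lower with library totals, 10 with only genes of at least 10 CPM). In what follows a value with ± and CPM is the mean with its SD over 3 libraries. SRP19, a protein of the signal recognition particle, had 13.3 ± 0.836 CPM with the Ser mc-tRNA against 30.4 ± 1.13 CPM with EGFP(R65), and 35.7 ± 2.20 CPM with the Trp mc-tRNA against 20.01 ± 1.11 CPM with EGFP(R96W). It fell by 1.20 with the one and rose by 0.84 with the other, a difference of -2.03 ± 0.10 (adjusted p 3.26e-17). SRPRB and SEC11C, a subunit of the particle's receptor and a catalytic subunit of the signal peptidase, likewise fell with the Ser mc-tRNA and rose with the Trp mc-tRNA, with differences of -1.22 ± 0.11 and -1.11 ± 0.13. SEC61A1, the channel itself, rose with both, by 0.34 ± 0.07 and 1.40 ± 0.07. SEC13, a coat protein of COPII, rose with both too, by 0.47 ± 0.07 and 1.14 ± 0.07. SEC23B, another coat protein, rose by 1.31 ± 0.08 and 0.74 ± 0.08 and was 1 of the 3 transport genes with the higher Ser effect (adjusted p 9.08e-05). SEC22B, a membrane fusion protein of the same route, fell with the Ser mc-tRNA (-0.42 ± 0.07) and rose with the Trp mc-tRNA (0.30 ± 0.07).

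Cytosolic chaperones rose with the Trp mc-tRNA and, for most members, did not rise with the Ser mc-tRNA. In 4 lists with 53 tested genes (HSP70 and HSP110, HSP40 co-chaperones, small heat shock proteins with BAG co-chaperones, and HSP90 with its co-chaperones), 42 rose and 2 fell with the Trp mc-tRNA, where 20.7% of all genes rose. With the Ser mc-tRNA 11 rose and 16 fell, where 26.6% of all genes rose and 30.7% fell. The Ser effect was the lower one for 38 of the 53 (71.7%, where it was for 25.8% of all genes) and the higher one for 1, FKBP5. The 42 that rose with the Trp mc-tRNA comprise 11 that rose with the Ser mc-tRNA as well, 14 that fell with it and 17 whose Ser effect did not pass the test. The median effect over the 53 genes was -0.02 with the Ser mc-tRNA and 0.66 with the Trp mc-tRNA. In the ER lumen list these medians were 0.71 and 0.85, so that the median gene was higher with the Ser mc-tRNA in the ER list alone and with the Trp mc-tRNA in both. A lower Ser effect was not limited to cytosolic chaperones. It was found for 32 of 70 genes of ER chaperones, disulfide exchange and ER-associated degradation (45.7%). The same held for 41 of 62 genes of translocation, glycosylation and ER-Golgi transport (66.1%). In both of these sets more genes rose than fell with the Ser mc-tRNA.

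The largest differences were in the HSP70 family, of which 7 of 10 had the lower Ser effect and none the higher. HSPA1B, the main stress-inducible HSP70, had 365, 357 and 442 CPM with the Ser mc-tRNA, against 1041, 1025 and 1262 CPM with EGFP(R65). It had 2357, 2384 and 1944 CPM with the Trp mc-tRNA, against 495, 326 and 268 CPM with EGFP(R96W). The groups did not overlap within either pair, and they lay in opposite order. The Ser effect was -1.51 ± 0.18 and the Trp effect 2.62 ± 0.18, which differ by -4.13 ± 0.25 (adjusted p 2.46e-11). HSPA1A, its neighbour with a nearly identical coding sequence, was given far fewer counts, at 1.34 ± 0.195 CPM with the Ser mc-tRNA against 3.75 ± 0.447 CPM with EGFP(R65), and 11.2 ± 1.21 CPM with the Trp mc-tRNA against 1.18 ± 0.504 CPM with EGFP(R96W) (mean ± SD, n = 3), with a difference of -4.72 ± 0.27. How the authors' counting split reads between these 2 copies is uncertain, and both lie on chromosome 6, chr6:31815464-31817946 and chr6:31827735-31830255 (GRCh38, plus strand).

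HSPA6, an HSP70 that is nearly silent without stress, rose with both. It had 42.7, 49.4 and 54.0 CPM with the Ser mc-tRNA against 9.90, 10.4 and 7.16 CPM with EGFP(R65), and 122, 121 and 56.6 CPM with the Trp mc-tRNA against 1.56, 2.36 and 1.05 CPM with EGFP(R96W). The third Trp mc-tRNA library was well below the other 2 and close to the highest Ser mc-tRNA library. The effects of 2.41 ± 0.23 and 5.89 ± 0.28 differed by -3.48 ± 0.36 (adjusted p 8.54e-08), and reads of the related copy HSPA7 may be mixed in. HSPH1, an HSP110 that exchanges the nucleotide bound to HSP70, had 758, 774 and 772 CPM with the Ser mc-tRNA against 948, 939.5 and 905 CPM with EGFP(R65), and 1508, 1457 and 1313 CPM with the Trp mc-tRNA against 355, 329.8 and 274 CPM with EGFP(R96W). It fell with the Ser mc-tRNA (-0.28 ± 0.08) and rose with the Trp mc-tRNA (2.16 ± 0.09), with a difference of -2.44 ± 0.12 (adjusted p 3.26e-17). HSPA8, the constitutive HSP70, had 1214, 1223 and 1161 CPM with the Ser mc-tRNA against 1346, 1358 and 1310.2 CPM with EGFP(R65), and 2841, 3078 and 2249 CPM with the Trp mc-tRNA against 1569.8, 1435 and 1304 CPM with EGFP(R96W). Its Trp effect was 0.92 ± 0.08 and its Ser effect of -0.16 ± 0.08 did not pass the test (adjusted p 0.0765).

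HSPA6 and HSPA8 are the 2 HSP70 genes whose promoters held the heat shock element, searched on both strands as GAA, TTC and GAA, or TTC, GAA and TTC, with 2 bases of any kind between the blocks. Their windows are shown with the matches in capitals, from RefSeq GRCh38.p14 on the same span as above, HSPA6 on the plus strand of chromosome 1 (chr1:161524290-161524589) and HSPA8 on the minus strand of chromosome 11 (chr11:123062087-123062386).
HSPA6: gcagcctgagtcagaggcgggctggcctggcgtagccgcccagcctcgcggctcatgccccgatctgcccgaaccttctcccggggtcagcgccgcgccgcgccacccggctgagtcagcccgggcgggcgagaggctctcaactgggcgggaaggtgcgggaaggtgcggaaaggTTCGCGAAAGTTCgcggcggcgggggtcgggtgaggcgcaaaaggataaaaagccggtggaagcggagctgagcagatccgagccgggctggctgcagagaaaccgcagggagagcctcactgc
HSPA8: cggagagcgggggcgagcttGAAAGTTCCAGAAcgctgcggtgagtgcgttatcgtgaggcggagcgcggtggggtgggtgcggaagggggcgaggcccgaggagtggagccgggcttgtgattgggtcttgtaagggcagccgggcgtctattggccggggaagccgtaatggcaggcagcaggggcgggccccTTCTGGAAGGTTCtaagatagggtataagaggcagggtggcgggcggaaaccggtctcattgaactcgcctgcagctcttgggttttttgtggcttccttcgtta
The matches began at -74 in HSPA6 and at -230 and -55 in HSPA8. The element was found in 48 of 13386 promoters of tested genes (0.359%) and in 5 of 45 promoters of the 4 cytosolic chaperone lists (11.1%), the others being CHORDC1, DNAJA1 and DNAJB6. All 5 had the lower Ser effect, with medians of 0.08 in the Ser effect and 1.11 in the Trp effect. Over all 48 genes with the element, 15 had the lower and 7 the higher Ser effect. Their medians were 0.04 in the Ser effect and 0.12 in the Trp effect. HSPA1B, HSPH1 and DNAJB1 held no match of these letters in this window.

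Among the HSP40 co-chaperones, which bring substrates to HSP70, 12 of 16 tested genes had the lower Ser effect and none the higher. DNAJB1 rose with both and had 283, 289 and 326 CPM with the Ser mc-tRNA against 206, 209.5 and 213 CPM with EGFP(R65), and 744, 753 and 545 CPM with the Trp mc-tRNA against 160.3, 143.5 and 141.3 CPM with EGFP(R96W). The effects of 0.52 ± 0.08 and 2.20 ± 0.08 differed by -1.68 ± 0.11 (adjusted p 2.28e-14). DNAJB4 had a like pattern, with 0.82 ± 0.10 and 2.33 ± 0.11. DNAJA1 rose with the Trp mc-tRNA (1.11 ± 0.08), and its Ser effect was 0.08 ± 0.08 (adjusted p 0.391). DNAJC7 fell with the Ser mc-tRNA (-0.51 ± 0.06) and rose with the Trp mc-tRNA (0.54 ± 0.06).

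Of 10 tested small heat shock proteins and BAG family members, 7 had the lower Ser effect, and 4 when only genes of at least 10 CPM were kept. BAG3, which links HSP70 to small heat shock proteins and to autophagy, had 182, 178 and 165 CPM with the Ser mc-tRNA against 113, 122 and 106 CPM with EGFP(R65), and 374, 358 and 254 CPM with the Trp mc-tRNA against 45.7, 43.9 and 44.4 CPM with EGFP(R96W). It rose in both pairs, by 0.63 ± 0.09 and 2.88 ± 0.09, and the effects differed by -2.25 ± 0.12 (adjusted p 1.33e-15). HSPB1, the small heat shock protein HSP27, had 51.8, 48.1 and 56.0 CPM with the Ser mc-tRNA against 51.1, 56.8 and 56.5 CPM with EGFP(R65), which overlap, and 219, 221 and 233 CPM with the Trp mc-tRNA against 63.7, 62.0 and 74.5 CPM with EGFP(R96W), which do not. Its difference was -1.83 ± 0.11 (adjusted p 2.84e-15). HSPB8, BAG3's partner, fell by 1.54 with the Ser mc-tRNA and rose by 1.89 with the Trp mc-tRNA, at means of 2.49 ± 0.384, 7.26 ± 1.11, 10.8 ± 2.64 and 2.93 ± 0.206 CPM in Ser mc-tRNA, EGFP(R65), Trp mc-tRNA and EGFP(R96W) libraries. CRYAB, αB-crystallin, was near the limit of detection with EGFP(R65), at 0.116 ± 0.0803 CPM with the Ser mc-tRNA and 0.157 ± 0.0388 CPM without it, and reached 4.54 ± 1.31 CPM with the Trp mc-tRNA against 0.740 ± 0.403 CPM with EGFP(R96W).

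Of the 17 genes of HSP90 and its co-chaperones, 12 rose with the Trp mc-tRNA and 1 with the Ser mc-tRNA, which was HSP90AB1 at 0.47 ± 0.07, and 6 fell with the Ser mc-tRNA. HSP90AA1, the inducible cytosolic HSP90, had 2744, 2841 and 2795 CPM with the Ser mc-tRNA against 3027, 3028 and 2955 CPM with EGFP(R65), and 5839, 6022 and 5272 CPM with the Trp mc-tRNA against 2264, 2151 and 1819 CPM with EGFP(R96W). Its Ser effect of -0.10 ± 0.08 did not pass the test (adjusted p 0.256), its Trp effect was 1.46 ± 0.08, and the difference was -1.56 ± 0.11 (adjusted p 1.17e-13); the gene overlaps WDR20 on the other strand. CHORDC1, a co-chaperone of HSP90, had 237, 241 and 242 CPM with the Ser mc-tRNA against 381, 378 and 387 CPM with EGFP(R65), and 549, 486 and 463 CPM with the Trp mc-tRNA against 159.5, 155.8 and 122 CPM with EGFP(R96W). It had the largest difference of the list, -2.45 ± 0.16 (adjusted p 3.2e-12). STIP1, which joins HSP70 to HSP90, and PPID, a cyclophilin co-chaperone, fell slightly with the Ser mc-tRNA (-0.24 ± 0.07 and -0.36 ± 0.06) and rose with the Trp mc-tRNA (1.11 ± 0.07 and 0.97 ± 0.06).

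The levels with the reporter alone entered these differences. In the 53 genes the median level with EGFP(R65) alone was 0.32 above that with EGFP(R96W) alone on the log2 scale, where the median of all genes was -0.06, and 10 genes were at least 2-fold above and 2 at least 2-fold below. With the mc-tRNAs the order was the other way: the median level in Ser mc-tRNA libraries was 0.54 log2 units below that in Trp mc-tRNA libraries (-0.54, where all genes had -0.07), with 12 genes at least 2-fold below and 0 at least 2-fold above. For HSPA1B the reporter-alone levels differed by 1.61 and the levels with mc-tRNA by -2.52, and for HSPH1 by 1.54 and -0.89. HSPA8 and HSPB1 had lower or like levels with EGFP(R65) alone (-0.10 and -0.28), so that their differences lay in the levels with mc-tRNA (-1.18 and -2.11). TMX4, CREB3L4, EIF2AK3, HBS1L, RPS10, RPL17, RPL7A and ALDOC, which are described in other paragraphs, differed more than 2 times as far between the reporters alone (-2.34 to 1.12) as between the mc-tRNAs (-0.30 to 0.40). The same held for HSPA6 (2.45 between the reporters alone and -1.03 between the mc-tRNAs), ATF3 (1.29 and -0.59) and ERLIN2 (-1.07 and -0.33). It also held for CCT2 (0.54 and -0.16), HSF2 (0.44 and -0.10) and RARS1 (0.35 and 0.10). In the ER lumen list the median was -0.21 between the reporters alone and -0.36 between the mc-tRNAs. The part of the reporter-alone levels in the difference cannot be told apart from that of the mc-tRNAs where both move.

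**Figure D3:**
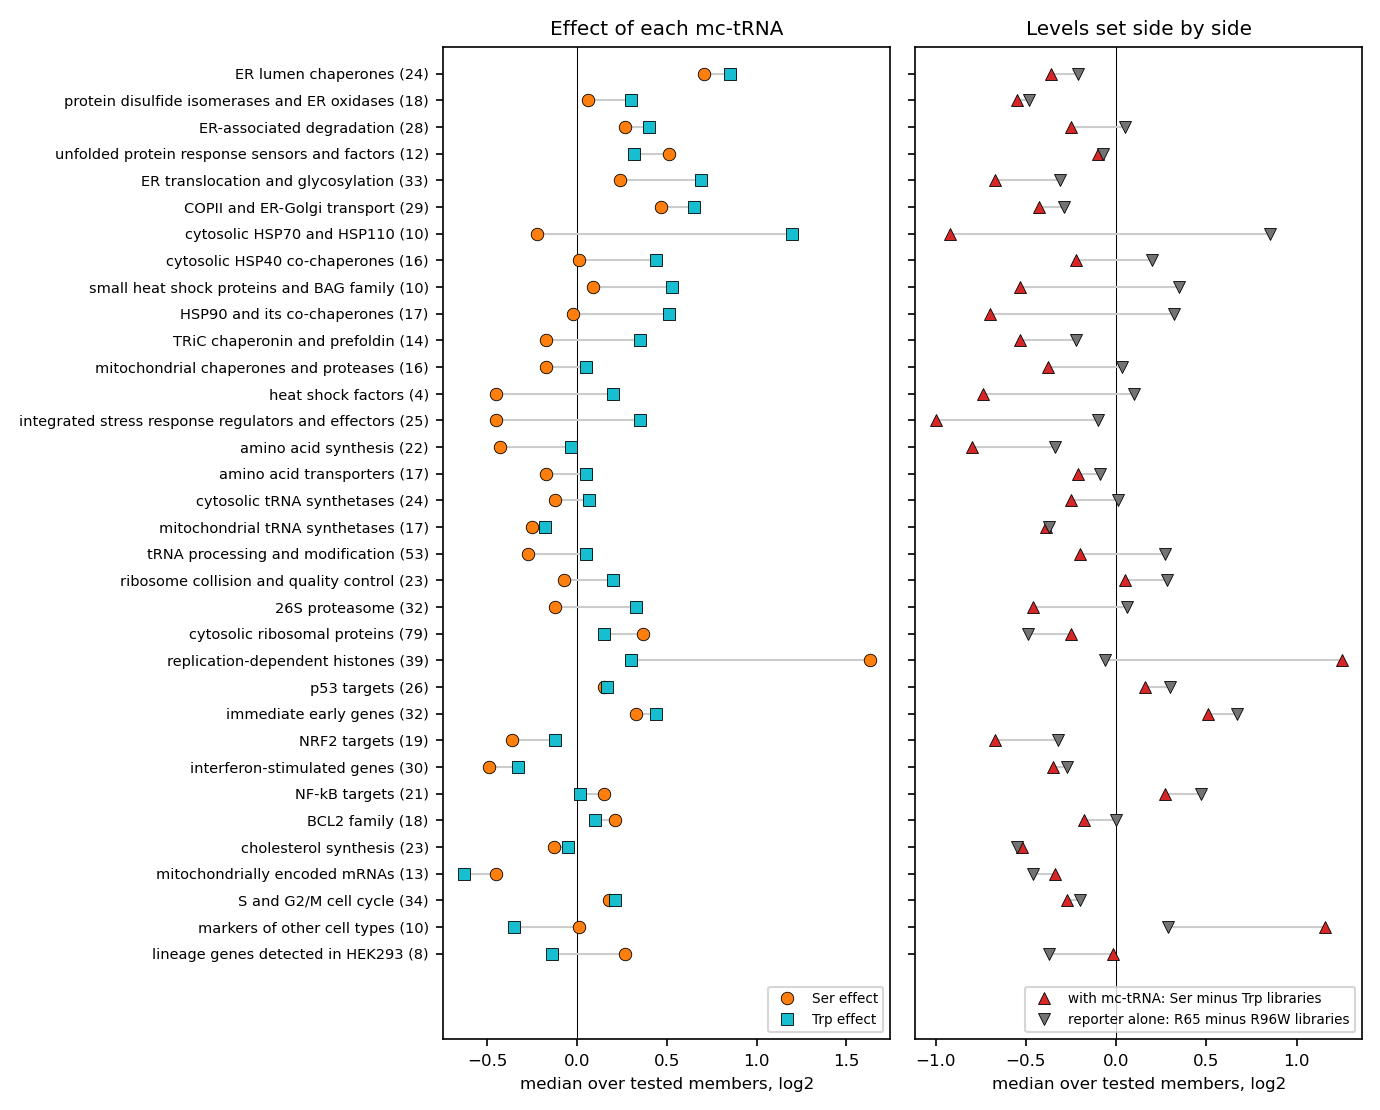
Median over the tested members of 34 gene lists (number in brackets), in log2 units. On the left are the Ser effect and the Trp effect. On the right is the level in Ser minus Trp mc-tRNA libraries beside the level in EGFP(R65) minus EGFP(R96W) libraries alone. The Ser median lies 1.42 below the Trp median for HSP70 and HSP110 and close to it for ER lumen chaperones, at 0.71 and 0.85; the replication-dependent histones stand out to the right, at 1.63 and 0.30.

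Most listed genes of the cytosolic chaperonin and prefoldin had the lower Ser effect. Of 14 genes of the TRiC chaperonin and prefoldin, 11 rose with the Trp mc-tRNA and none fell, 3 rose and 6 fell with the Ser mc-tRNA, and 10 had the lower Ser effect. TCP1, a TRiC subunit, had 685 ± 20.2 CPM with the Ser mc-tRNA against 786 ± 10.2 CPM with EGFP(R65), and 962 ± 107 CPM with the Trp mc-tRNA against 516 ± 14.3 CPM with EGFP(R96W). Its difference was -1.10 ± 0.10 (adjusted p 1.99e-11). The subunits CCT5, CCT6A and CCT2 fell with the Ser mc-tRNA and rose with the Trp mc-tRNA, with differences of -0.75, -0.73 and -0.70. In mitochondria, 9 of 16 chaperones and proteases had the lower Ser effect, but 7 rose and 2 fell with the Trp mc-tRNA (median 0.05, and -0.09 with library totals), and 3 rose and 9 fell with the Ser mc-tRNA (median -0.17). HSPD1 and HSPE1, the HSP60 and HSP10 of the matrix, fell by 0.14 and 0.68 with the Ser mc-tRNA and rose by 1.00 and 0.87 with the Trp mc-tRNA; the 2 genes overlap head to head, and their reads may be shared if strand was not used. HSPA9, the matrix HSP70, differed by -1.17 ± 0.08, and HTRA2, a protease between the mitochondrial membranes, had the higher Ser effect (0.78 ± 0.11). HSF1 itself, the factor of the heat shock response, rose with the Trp mc-tRNA (0.41 ± 0.07), and its Ser effect of -0.13 ± 0.07 did not pass the test (adjusted p 0.0976). Its level was 83.1 ± 6.15 CPM with the Ser mc-tRNA and 83.0 ± 1.73 CPM with the Trp mc-tRNA, and its difference lay in the reporter-alone levels, 90.9 ± 6.51 CPM with EGFP(R65) and 62.7 ± 3.74 CPM with EGFP(R96W). HSF2, HSF4 and HSBP1, a protein that binds HSF1, all had the lower Ser effect, at -0.54, -1.15 and -0.75.

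The integrated stress response separated the 2 mc-tRNAs as well. Of 25 regulators and effectors, 17 rose and none fell with the Trp mc-tRNA, 5 rose and 13 fell with the Ser mc-tRNA, and 19 had the lower Ser effect and none the higher. The median difference was -0.75, from medians of -0.45 with the Ser mc-tRNA and 0.35 with the Trp mc-tRNA. The list holds the inducible regulators beside the kinases, and its members moved differently. ATF4, whose protein is regulated mainly by translation, rose in both, with means of 909.7 ± 33.9 CPM with the Ser mc-tRNA against 724 ± 24.9 CPM with EGFP(R65), and 1028 ± 82.7 CPM with the Trp mc-tRNA against 852 ± 54.7 CPM with EGFP(R96W). Its difference of 0.06 ± 0.09 did not pass the test (adjusted p 0.621).

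TRIB3, a pseudokinase induced by ATF4 and CHOP, had 22.0, 21.5 and 24.1 CPM with the Ser mc-tRNA against 55.1, 58.0 and 57.6 CPM with EGFP(R65), and 133.8, 137.8 and 110.2 CPM with the Trp mc-tRNA against 40.7, 51.3 and 82.5 CPM with EGFP(R96W). It fell in the Ser pair (-1.33 ± 0.22) and rose in the Trp pair (1.13 ± 0.21), with no overlap within a pair, and the difference was -2.47 ± 0.30 (adjusted p 7.38e-07). ATF3, a stress-induced repressor, had 228, 242 and 224 CPM with the Ser mc-tRNA against 427, 437 and 403 CPM with EGFP(R65), and 362, 386 and 298 CPM with the Trp mc-tRNA against 159.4, 169 and 189 CPM with EGFP(R96W). It too moved in opposite directions, and differed by -1.88 ± 0.12 (adjusted p 3.56e-14). PPP1R15A, which encodes GADD34 and restores eIF2α to its unphosphorylated form, had 217, 228 and 225 CPM with the Ser mc-tRNA against 231, 236 and 223 CPM with EGFP(R65), and 257, 269.6 and 198 CPM with the Trp mc-tRNA against 69.5, 75.2 and 72.2 CPM with EGFP(R96W). The 3 groups other than EGFP(R96W) alone overlapped, so that its difference of -1.78 ± 0.13 (adjusted p 8.6e-13) lay in the reporter-alone levels, 1.67 apart, and not in those with mc-tRNA, -0.11 apart. DDIT3, which encodes CHOP, rose with both, by 0.39 ± 0.14 and 1.10 ± 0.14, with a difference of -0.71 ± 0.20 (adjusted p 0.00648). NIBAN1, a stress-induced regulator of translation, fell by 1.79 with the Ser mc-tRNA and rose by 1.17 with the Trp mc-tRNA. CHAC1, a glutathione-degrading enzyme, fell with the Ser mc-tRNA (-0.80 ± 0.24) and differed by -0.84 ± 0.32, a call with an adjusted p of 0.0386 that was lost with library totals (-0.75), with the filter at 10 CPM (-0.71), without a filter (-0.84) and without any 1 of 8 libraries (-0.64 to -0.84). The amino acid response element, which ATF4 binds, was searched as TGATG, any base, AA on both strands, and was found in 4 of 22 promoters of the list (18.2%), those of ATF3, CHAC1, FGF21 and PPP1R15B, and in 244 of 13386 promoters of tested genes (1.82%).

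**Figure D4:**
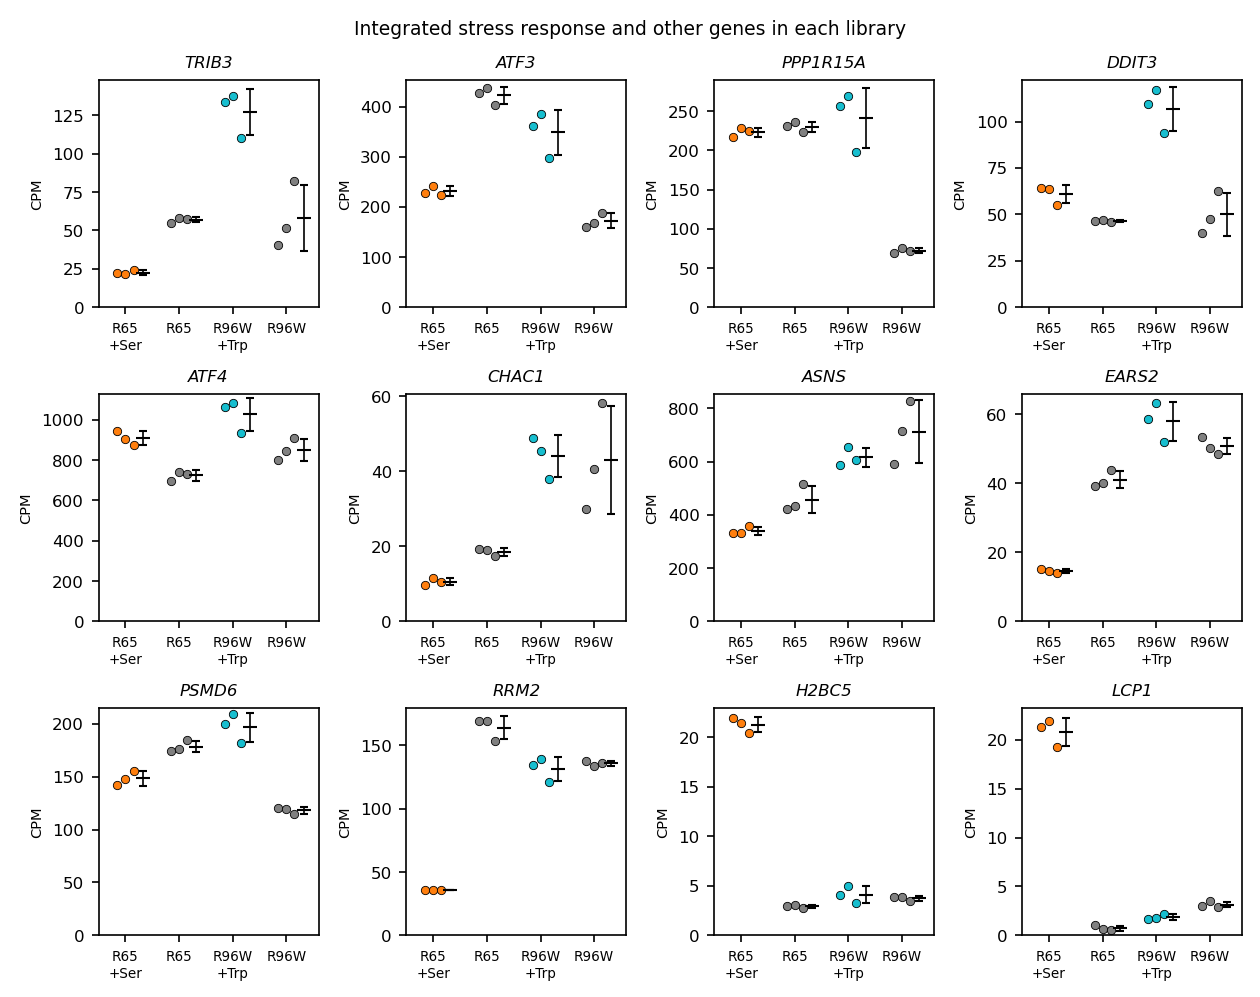
CPM in each library, with the mean and SD of 3 libraries beside the points, of 6 genes of the integrated stress response and of ASNS, EARS2, PSMD6, RRM2, H2BC5 and LCP1; the groups are in the order EGFP(R65)+Ser mc-tRNA, EGFP(R65), EGFP(R96W)+Trp mc-tRNA and EGFP(R96W). TRIB3 is low with the Ser mc-tRNA and high with the Trp mc-tRNA, PPP1R15A is low only in EGFP(R96W) libraries, and LCP1 and H2BC5 are high only with the Ser mc-tRNA.

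More genes that supply amino acids fell with the Ser mc-tRNA than with the Trp mc-tRNA. Of 22 genes of amino acid synthesis, 2 rose and 14 fell with the Ser mc-tRNA, 6 rose and 7 fell with the Trp mc-tRNA, and 15 had the lower Ser effect. PSAT1 and PSPH, which make serine, fell with the Ser mc-tRNA (-0.75 ± 0.08 and -0.91 ± 0.09) and had Trp effects of 0.03 and -0.07. ASNS, asparagine synthetase, fell with the Ser mc-tRNA (-0.43 ± 0.13), and its difference of -0.22 ± 0.18 did not pass the test (adjusted p 0.333). Of 17 amino acid transporters, 2 rose and 9 fell with the Ser mc-tRNA, 5 rose and 1 fell with the Trp mc-tRNA, and 10 had the lower Ser effect and none the higher.

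Among the synthetases of the amino acids involved, SARS1, the seryl-tRNA synthetase, did not pass the test in either effect or in the difference (0.02 ± 0.11, adjusted p 0.919). RARS1, for arginine, rose with both, by 0.21 ± 0.06 and 0.46 ± 0.06, and WARS1, for tryptophan, by 0.22 ± 0.08 and 0.59 ± 0.08. Their differences of -0.26 and -0.37 had adjusted p-values of 0.0178 and 0.011, and both calls were lost when genes under 10 CPM were left out (-0.13 and -0.24). That of RARS1 was lost as well with library totals (-0.16), without the third Ser mc-tRNA library (-0.20) and without the second Trp mc-tRNA library (-0.22). Of the 24 cytosolic synthetases and their partners, 13 had the lower Ser effect, with EEF1E1, a scaffold of the synthetase complex, at -1.20 ± 0.13 and the asparaginyl and tyrosyl enzymes NARS1 and YARS1 at -0.76 and -0.75. Of 17 mitochondrial synthetases, 4 had the higher and 6 the lower Ser effect. EARS2, the mitochondrial glutamyl enzyme, had 14.6 ± 0.535 CPM with the Ser mc-tRNA against 41.0 ± 2.44 CPM with EGFP(R65), and 57.9 ± 5.62 CPM with the Trp mc-tRNA against 50.8 ± 2.40 CPM with EGFP(R96W), a difference of -1.68 ± 0.10 (adjusted p 1.16e-15). SARS2, the mitochondrial seryl enzyme, fell in both, by 1.56 with the Ser mc-tRNA and by 0.56 with the Trp mc-tRNA, at means under 10 CPM.

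Of 53 tested genes of tRNA processing and modification, 4 rose and 32 fell with the Ser mc-tRNA, where 30.7% of all genes fell, and 17 rose and 14 fell with the Trp mc-tRNA. The Ser effect was the lower one for 30 and the higher one for 6. TRNT1, which adds the terminal CCA to tRNAs, had 15.4 ± 1.12 CPM with the Ser mc-tRNA against 34.1 ± 0.816 CPM with EGFP(R65), and 27.4 ± 0.301 CPM with the Trp mc-tRNA against 23.1 ± 2.92 CPM with EGFP(R96W). The difference was -1.39 ± 0.12 (adjusted p 1.45e-11). TRMT2A, a tRNA methyltransferase, fell by 1.26 with the Ser mc-tRNA, and POP7, a subunit of RNase P, fell with it by 0.45 and rose by 0.82 with the Trp mc-tRNA. Of 23 genes of ribosome collision and quality control, 13 had the lower Ser effect, led by PELO, a ribosome rescue factor, at -1.15 ± 0.10. Its partner HBS1L had -0.75 ± 0.07. Over the 23 genes the median level differed by 0.28 between the reporters alone and by 0.05 between the mc-tRNAs.

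The 26S proteasome, which degrades ubiquitinated proteins, differed across its subunits. Of 32 subunit genes, 22 rose and none fell with the Trp mc-tRNA, 3 rose and 16 fell with the Ser mc-tRNA, and 10 fell with the Ser mc-tRNA and rose with the Trp mc-tRNA. The Ser effect was the lower one for 24 and the higher one for none, with a median difference of -0.46. PSMD6, of the regulatory particle, had 141.6, 147.6 and 155.7 CPM with the Ser mc-tRNA against 174, 176 and 184 CPM with EGFP(R65), and 199.9, 209 and 182 CPM with the Trp mc-tRNA against 121, 119 and 114 CPM with EGFP(R96W). The EGFP(R96W) libraries were the lowest, and the effects of -0.27 ± 0.06 and 0.74 ± 0.06 differed (adjusted p 2.38e-12). PSMD11 fell by 0.56 with the Ser mc-tRNA and rose by 0.39 with the Trp mc-tRNA. PSMA2 had the largest difference of the list (-1.35 ± 0.17), at 3.65 ± 0.0623 CPM with the Ser mc-tRNA; the gene overlaps MRPL32 on the other strand. Summed over the subunits, the level was 4102 to 4140 CPM with the Ser mc-tRNA, 4494 to 4625 CPM with EGFP(R65), 4704 to 5726 CPM with the Trp mc-tRNA and 4236 to 4355 CPM with EGFP(R96W).

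Many replication-dependent histones had the higher Ser effect. These histone genes make most of the histones of S phase, and their mRNAs normally carry no poly(A) tail, so that polyA-selected libraries hold little of them. Of 58 listed genes 39 were tested; 26 of them rose and 1 fell with the Ser mc-tRNA, 12 rose and none fell with the Trp mc-tRNA, and 19 had the higher Ser effect and none the lower (2 higher when only genes of at least 10 CPM were kept). The median difference was 1.19, and 1.21 when the 7 genes with a group at or under the floor of 3 counts per library were set to it. H2BC5, an H2B gene, had 22.0, 21.4 and 20.4 CPM with the Ser mc-tRNA against 2.93, 3.10 and 2.80 CPM with EGFP(R65), and 4.11, 5.01 and 3.23 CPM with the Trp mc-tRNA against 3.88, 3.88 and 3.47 CPM with EGFP(R96W). The Ser mc-tRNA libraries stood apart from the 9 others, and the effects of 2.85 ± 0.15 and 0.14 ± 0.15 differed by 2.72 ± 0.21 (adjusted p 1.73e-12). H2BC6, another H2B gene, rose with the Ser mc-tRNA by 3.08 ± 0.20, and its Trp effect of 0.30 ± 0.22 did not pass the test (adjusted p 0.295). The sum over the list was 279.8 to 286 CPM with the Ser mc-tRNA, 88.8 to 94.8 CPM with EGFP(R65), 106.1 to 135.1 CPM with the Trp mc-tRNA and 84.3 to 90 CPM with EGFP(R96W). Histone genes are near copies of each other, and how reads were divided among them is uncertain.

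Genes of DNA replication and mitosis differed in both directions. Of 34 genes of S phase and G2/M, 8 had the higher and 12 the lower Ser effect, where 19.5% and 25.8% of all genes did. The median difference was 0.05. RRM2, the regulated subunit of ribonucleotide reductase, had 35.6 ± 0.0629 CPM with the Ser mc-tRNA against 164 ± 9.03 CPM with EGFP(R65), and 131.6 ± 9.39 CPM with the Trp mc-tRNA against 135.9 ± 1.81 CPM with EGFP(R96W). It fell by 2.20 with the Ser mc-tRNA, its Trp effect of -0.05 ± 0.06 had an adjusted p of 0.549, and the difference was -2.16 ± 0.08 (adjusted p 4.08e-20). GINS2, of the replicative helicase, fell with the Ser mc-tRNA (-0.53 ± 0.08) and rose with the Trp mc-tRNA (0.74 ± 0.08). CDC6, which loads that helicase, rose by 0.19 ± 0.08 and 1.08 ± 0.08, with reporter-alone levels 1.00 apart and levels with mc-tRNA 0.11 apart. TOP2A, the topoisomerase of dividing cells, rose with the Ser mc-tRNA (0.31 ± 0.11) and fell with the Trp mc-tRNA (-0.58 ± 0.11), and its levels differed by -0.82 between the reporters alone and by 0.07 with mc-tRNA.

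Among 79 cytosolic ribosomal protein genes, 58 rose and 1 fell with the Ser mc-tRNA and 25 rose with the Trp mc-tRNA, by small amounts with medians of 0.37 and 0.15. Over the 79 genes the median level differed by -0.49 between the reporters alone and by -0.25 between the mc-tRNAs. The Ser effect was the higher one for 19 and the lower one for 3, and the first count moved with single libraries and with scaling, with 12 when the third EGFP(R96W) library was left out, 30 without the second Trp mc-tRNA library and 37 when library totals replaced the TMM factors. RPL7A had the largest higher Ser effect (0.88 ± 0.11), its EGFP(R65) libraries being the lowest, with 1478, 1449.8 and 1507 CPM with the Ser mc-tRNA against 805, 853 and 916 CPM with EGFP(R65), and 1526, 1800.5 and 1412 CPM with the Trp mc-tRNA against 1549.8, 1614 and 1912 CPM with EGFP(R96W). RPS10, RPL36A and RPL17 had the lower Ser effect, at -1.29, -1.12 and -1.08, with means under 60 CPM, and reads of these genes can be shared with processed copies and with the read-through genes RPL36A-HNRNPH2 and RPL17-C18orf32.

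**Figure D5:**
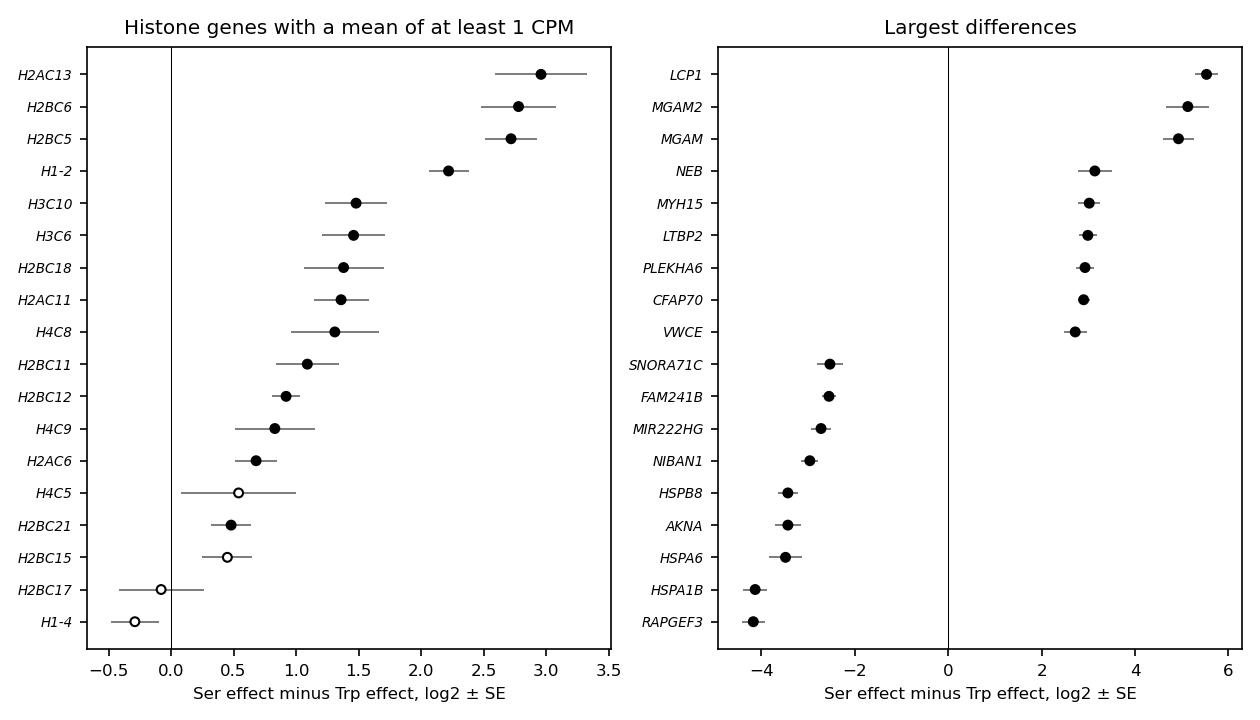
Ser effect minus Trp effect (log2, bars are 1 SE) for the 18 tested histone genes with a mean of at least 1 CPM and counts above the floor in the EGFP(R96W) pair (left), and for 18 of the genes with the largest differences (right); filled points passed the test and open points did not. H2AC13, H2BC6, H2BC5 and H1-2 lie above 2, and LCP1 and RAPGEF3 mark the ends of the right panel at 5.53 and -4.17.

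Outside protein folding, immediate early genes and NF-kB targets had shares of differing members near the 19.5% higher and 25.8% lower of all genes. The other programmes given below, NRF2 targets among them, lay further from these shares. Most of these lists are short, and no test was run over a list. The values below are of single genes. Of 32 immediate early genes, 18 rose with each mc-tRNA and 6 had the higher and 8 the lower Ser effect, close to those shares. EGR3, a growth-responsive factor, rose with the Ser mc-tRNA (0.91 ± 0.16) and fell with the Trp mc-tRNA (-0.74 ± 0.19). MYC, the growth regulator, had 33.0 ± 0.600 CPM with the Ser mc-tRNA against 86.8 ± 8.76 CPM with EGFP(R65), and 88.7 ± 2.96 CPM with the Trp mc-tRNA against 103 ± 7.34 CPM with EGFP(R96W), and fell by 1.40 and by 0.22. In 10 of the 32, EGFP(R65) libraries were at least 2-fold above EGFP(R96W) libraries with the reporter alone. Of 19 NRF2 targets, 12 fell with the Ser mc-tRNA and 8 with the Trp mc-tRNA. The Ser effect was the lower one for 10, a larger share than the 25.8% of all genes, and the higher one for 2. The median difference was -0.48. TXNRD1 and ME1, which supply reduced thioredoxin and NADPH, fell with the Ser mc-tRNA (-0.58 ± 0.06 and -0.88 ± 0.07) and rose with the Trp mc-tRNA (0.39 ± 0.06 and 0.23 ± 0.07).

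In the BCL2 family of apoptosis regulators, 5 of 18 had the higher and 6 the lower Ser effect. MCL1, which opposes apoptosis, had 208 ± 4.48 CPM with the Ser mc-tRNA against 301 ± 12.8 CPM with EGFP(R65), and 339.7 ± 21.1 CPM with the Trp mc-tRNA against 198 ± 12.3 CPM with EGFP(R96W). It fell with the one and rose with the other, a difference of -1.31 ± 0.08 (adjusted p 3.16e-15), and BAK1, which promotes apoptosis, did the same (-1.04 ± 0.12). BMF, another promoter of apoptosis, fell with the Trp mc-tRNA (-0.82 ± 0.10), and its Ser effect was 0.20 ± 0.10. Of 26 p53 targets, 6 had the higher and 9 the lower Ser effect; TNFRSF10B, the death receptor DR5, which CHOP also induces, rose by 0.22 ± 0.06 and 0.95 ± 0.06, with reporter-alone levels 0.69 apart and levels with mc-tRNA -0.04 apart. GADD45A, a growth arrest gene, fell with the Ser mc-tRNA (-0.82 ± 0.08), and its Trp effect was 0.18 ± 0.07. PLK2, a stress-responsive kinase, rose with the Ser mc-tRNA (0.96 ± 0.15) and fell with the Trp mc-tRNA (-0.45 ± 0.16).

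Of 30 tested interferon-stimulated genes, 9 rose and 14 fell with the Ser mc-tRNA, 2 rose and 13 fell with the Trp mc-tRNA, and 7 had the higher and 4 the lower Ser effect. IFIT2, which binds foreign RNA, had 1.60, 1.95 and 2.08 CPM with the Ser mc-tRNA against 0.203, 0.225 and 0.138 CPM with EGFP(R65), and 0.498, 0.261 and 0.251 CPM with the Trp mc-tRNA against 0.263, 0.520 and 0.457 CPM with EGFP(R96W). MX1, an antiviral GTPase, had 6 counts in all with the Ser mc-tRNA against 293 counts with EGFP(R65), and 11 counts with the Trp mc-tRNA against 21 counts with EGFP(R96W), few in 3 groups, and no fold change is given. Of 21 NF-kB targets, 4 had the higher and 5 the lower Ser effect, close to the shares of all genes, and NFKBIB, an inhibitor of that factor, rose by 0.15 ± 0.06 and 1.04 ± 0.06, with reporter-alone levels 1.11 apart and levels with mc-tRNA 0.21 apart. Of 23 genes of cholesterol synthesis, 3 had the higher and 9 the lower Ser effect. INSIG1, which keeps the sterol sensor in the ER, fell with the Ser mc-tRNA (-0.71 ± 0.11), and its EGFP(R65) libraries were far below its EGFP(R96W) libraries, at 75.4 ± 10.2 against 236 ± 23.2 CPM. Of the 13 mitochondrially encoded mRNAs, 12 fell with each mc-tRNA, and 4 had the higher and 1 the lower Ser effect. That one was MT-ND6, the only one on the light strand, at -1.06 ± 0.37 (adjusted p 0.0223), a call that was lost without the first Trp mc-tRNA library (-0.95).

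Several of the largest differences toward the Ser effect were in genes with low levels in the other groups. LCP1, an actin-bundling protein of blood cells, had 21.3, 21.9 and 19.2 CPM with the Ser mc-tRNA against 1.04, 0.625 and 0.574 CPM with EGFP(R65), and 1.69, 1.74 and 2.21 CPM with the Trp mc-tRNA against 3.01, 3.48 and 2.95 CPM with EGFP(R96W). The Ser mc-tRNA libraries stood apart from the 9 others, the Ser effect being 4.79 ± 0.18, the Trp effect -0.74 ± 0.17 and the difference 5.53 ± 0.25 (adjusted p 3.58e-18). The neighbouring and similar genes MGAM and MGAM2, for intestinal maltase-glucoamylase and its relative, followed, with 4.93 ± 0.34 and 5.13 ± 0.46, and reads may be shared between them. NEB, the giant filament protein nebulin of skeletal muscle, MYH15, LTBP2, PLEKHA6, CFAP70 and VWCE had differences of 2.72 to 3.14, and all 6 rose with the Ser mc-tRNA, by up to 3.12; NEB overlaps RIF1 on the other strand. LTBP2, PLEKHA6 and CFAP70, with MGAM and ALDOC, were the 5 genes that rose with the Ser mc-tRNA and fell with the Trp mc-tRNA whose smaller effect was largest, and ALDOC, a glycolytic aldolase, rose by 1.16 and fell by 0.88. LINC02150 belongs to the 10 largest as well, but had 41 counts with the Ser mc-tRNA and 3 with EGFP(R65), against 2047 and 2222 in the Trp pair, so no fold change is given. Some markers of other cell types moved in the same libraries. Of 10 tested, 4 rose and 2 fell with the Ser mc-tRNA, with a median Ser effect of 0.01. ALB, of liver, had 9.41 ± 0.811 CPM with the Ser mc-tRNA against 0.535 ± 0.132 CPM with EGFP(R65), and 0.384 ± 0.200 CPM with the Trp mc-tRNA against 0.181 ± 0.0211 CPM with EGFP(R96W). ITGAM, of myeloid cells, had 5.20 ± 0.729 and 0.517 ± 0.0397 CPM in the Ser pair, and 0.493 ± 0.255 and 0.341 ± 0.0746 CPM in the Trp pair. Of the 10 markers tested 4 had the higher and 1 the lower Ser effect. That one was LUM, of connective tissue, with 5 counts over 3 libraries with the Ser mc-tRNA against 39 with EGFP(R65). It had 29 counts with the Trp mc-tRNA against 44 with EGFP(R96W). PECAM1, of endothelium, had the higher Ser effect (adjusted p 0.000572), with 217 counts over 3 libraries with the Ser mc-tRNA against 20 with EGFP(R65), and 5 with the Trp mc-tRNA against 9 with EGFP(R96W). The markers PTPRC, CD68, CD3E, VWF, CDH5 and HBB did not pass the filter on low counts, and the part of this in the result was not tested.

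Among genes with a mean of at least 5 CPM, the 10 lowest differences that passed the test included HSPA1B, HSPA6, HSPB8 and NIBAN1, given above, and genes outside the lists. HSPA1A, with a mean under 5 CPM, had a lower difference than HSPA1B. RAPGEF3, an exchange factor activated by cyclic AMP, had 1.56, 2.14 and 2.47 CPM with the Ser mc-tRNA against 8.96, 10.0 and 12.4 CPM with EGFP(R65), and 35.9, 29.4 and 26.02 CPM with the Trp mc-tRNA against 7.88, 7.90 and 10.3 CPM with EGFP(R96W), a difference of -4.17 ± 0.24 (adjusted p 7.37e-13); it overlaps SLC48A1 on the other strand. S100A5, a calcium-binding protein, had 1796 counts with the Ser mc-tRNA and 4296 with EGFP(R65), 4 with the Trp mc-tRNA and 0 with EGFP(R96W), and is given no fold change. AKNA fell by 2.20 and rose by 1.23. MIR222HG, the host transcript of miR-221 and miR-222, fell by 2.80 with the Ser mc-tRNA, and its Trp effect of -0.09 ± 0.13 did not pass the test (adjusted p 0.63). FAM241B fell by 2.17 and rose by 0.38. SNORA71C, a small nucleolar RNA inside SNHG17, differed by -2.53 ± 0.28, from 18.6 ± 3.92 and 35.0 ± 0.446 CPM in the Ser pair and 2.50 ± 0.285 and 0.819 ± 0.328 CPM in the Trp pair.

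ER stress genes stood among the 5 genes with the largest shared rise, ranked by the smaller of 2 called effects that did not differ past the test, although DNAJB9, MANF and NHLH1 did in some alternative settings. DNAJB9 and MANF, given above, stood beside PLPP5, a lipid phosphatase, with 2.18 ± 0.12 and 2.11 ± 0.12, FUT3, a fucosyltransferase of the Golgi, with 2.29 ± 0.15 and 2.25 ± 0.19, and NHLH1, a neuronal transcription factor, with 2.24 ± 0.16 and 1.90 ± 0.17. The 5 with the largest shared fall were SYCP2, SEMA3D, LYRM7, CARMIL3 and ITGA8, with Ser effects of -1.50 to -1.09 and Trp effects of -1.30 to -1.09. In all, 1277 of the 2027 genes raised by both and 1446 of the 2474 lowered by both had effects that did not differ past the test, which with this spread does not show them to be equal.

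Properties of the genes were compared with the difference for 13680 of 15127 tested protein-coding genes (90.4%), those with a complete coding sequence of the same gene version in GENCODE release 29. By the number of CGG codons per 1000 codons, which the CCG anticodon of the Ser mc-tRNA reads, the median Ser effect in 5 equal bins of genes from fewest to most was -0.11, -0.09, -0.06, -0.02 and -0.06. The median difference in the same bins was -0.10, -0.07, -0.11, -0.09 and -0.17. By the number of UGG codons, which the CCA anticodon of the Trp mc-tRNA reads, the median Trp effect in such bins was 0.04, 0.01, -0.03, -0.05 and -0.07, and the median difference lay between -0.12 and -0.09. Codon content thus moved with the medians by less than 0.2 log2 units. By the span of the gene, the median difference was highest, at 0.02, in the bin of the longest genes, from 96763 to 2298478 bases, where 26.7% had the higher Ser effect and 23.4% the lower. In the other bins 18% to 19.2% had the higher and 30.8% to 39.9% the lower Ser effect. These are descriptions across genes, which are not independent.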

How the data were processed

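Poly(A)-selected RNA from sorted HEK293 cells had been sequenced from strand-specific libraries, per the labels' protocols. The authors deposited whole-number read counts per gene, 1 file per library, for 58278 Ensembl genes and 92 ERCC spike-in sequences. The submitters' processing notes name STAR, SAMtools, featureCounts and hg38; of their versions, the annotation and the strand setting, no source used here says more. Symbols came from an ID table (41805 genes) and GENCODE release 29 (1251 genes), whose positions were used for 55109 genes of the same version.

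The counts were fitted with edgeR 4.0.16 in R 4.3.3 (TMM, filterByExpr, robust quasi-likelihood), with 10 group means over all 30 libraries. The spike-ins stayed out, 22321 genes were tested, residual degrees of freedom numbered 20 and the biological coefficient of variation was 8.24%. The difference of effects is 1 contrast of 4 groups, and the SE is the absolute log2 fold change divided by the square root of F. Gene values are TMM-normalised CPM. Genes at or under 3 counts in a library are at the floor. Within a reporter, deviations from the group mean correlated weakly and positively between libraries of the same replicate number (0.0255 to 0.131). The labels do not say whether these numbers pair the libraries, and the main fit used no pairing. Replicates within groups differed by more than counting noise (chi-square per degree of freedom 2.08 to 23.4), so each was counted as 1 sample. In each group the third replicate differed more from the other 2 than these did from each other. The fit was tested on simulated counts. Alternatives used RLE factors, library totals, other filters, DESeq2 1.42.0, the 12 libraries alone, a replicate block and each library left out.

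The comparison and the gene lists were chosen with earlier results of these data known. Genes named were the 10 largest differences per direction with at least 5 CPM, the 4 called members with the largest difference per list, a set of stress genes, and 5 per direction called in both effects with opposite signs, or with 1 sign and no called difference. HSPA13, PDIA4, SYVN1, HSP90AB1 and FKBP5 were added after their values were seen. Endings of the proteins were not analysed here.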

Additional observations from a re-analysis of the deposited data

Results flagged for a closer look

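Spike-in RNA, which no comparison used, was found in the EGFP(R96W) libraries, with 25 to 61 counts each, against 0 counts in every EGFP(R65) library, with or without mc-tRNA. The 18 libraries of the other reporters held 10 to 106 counts, so that the EGFP(R65) libraries stood apart from the other 24. Its part in the results was not tested.

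The responses to the 2 mc-tRNAs differed by a test of the difference itself for 10109 genes, of which 1024 had fallen with the Ser mc-tRNA and risen with the Trp mc-tRNA, and 805 had risen with the Ser mc-tRNA and fallen with the Trp mc-tRNA. The groups of 3 libraries are too small for a test of single outlying libraries.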

How the results depend on the processing

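In 20 alternative settings, of which 12 left out 1 library each, 17 of 175 named genes changed their side of the threshold for the difference in at least 1 setting, and none reversed. The difference was called for 9680 to 10542 genes under DESeq2 (10092), RLE factors (10043), library totals (9914, of which 5132 higher), no filter (9680), the 12 libraries alone (9933) and a replicate block, which gave 10542 shared by all groups and 10331 within reporter. The labels do not say whether replicate numbers pair the libraries, so the block is given only as an alternative. DNAJB9, whose difference missed the threshold, passed it with the block shared by all groups, with the block within reporter, without a filter and with the 12 libraries alone (adjusted p 0.0372, 0.0145, 0.0101 and 0.022), and without any 1 of 3 libraries (0.0362 to 0.0498); elsewhere it lay between 0.0522 and 0.228. MANF passed it with library totals (0.35), at 10 CPM (0.38) and without 1 of 2 libraries (0.32 and 0.34), and NHLH1 without EGFP(R65) replicate 1 (0.58).

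With only genes of at least 10 CPM, 10170 genes were tested, and the fewer calls follow from that: 5973 for the difference (2691 higher and 3282 lower), 7428 for the Ser effect (3690 and 3738) and 6261 for the Trp effect (3120 lower). In that setting ER lumen chaperones had 7 higher and 5 lower, COPII and ER-Golgi transport 10 lower, small heat shock proteins and BAG family 4 lower, ribosomal proteins 40 higher and histones 2 higher, and the median difference of markers of other cell types was -0.11, against 0.61. In the main fit, with groups at or under the floor set to it, the median difference of these markers was 0.20, over 8 genes with a fold. With library totals, ER lumen chaperones had 7 higher and 5 lower, COPII and ER-Golgi transport 12 lower and ribosomal proteins 37 higher. Ribosomal proteins had 31 higher with the 12 libraries alone, and 12 (without EGFP(R96W) replicate 3) to 30 (without Trp mc-tRNA replicate 2) with 1 library left out. ER translocation and glycosylation, with 1 higher, had 3 under DESeq2, RLE factors and the replicate block shared by all groups, 4 with library totals, at 10 CPM and with the 12 libraries, 2 without a filter and with the block within reporter, and 0 (without EGFP(R96W) replicate 3) to 2 with 1 library left out. The causes were not tested. Under library totals the median Trp effect turned negative for cytosolic tRNA synthetases (-0.06), tRNA processing (-0.08), mitochondrial chaperones (-0.09), amino acid transporters (-0.08), NF-kB targets (-0.12) and the BCL2 family (-0.03), while the median difference turned positive for the BCL2 family (0.04), NF-kB targets (0.01) and mitochondrial synthetases (0.02); the median Ser effect of HSP40 co-chaperones turned to -0.03, and with RLE factors that of HSP90 to 0.01. The floor of 0.0602 to 0.0769 CPM limits folds of the rarest transcripts.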
